A study of Mus musculus with 13 samples.

Results

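The cytosolic ribosomal protein genes were taken as every gene of the deposited expression table whose name starts with Rpl or Rps followed by a digit, leaving out names that start with Rps6k, which belong to kinases. The rule found 129 of 22667 genes. It found 42 large subunit genes, 30 small subunit genes, 8 named copies such as Rps27l, 48 names of pseudogenes and Rps19bp1, a protein that binds one of the small subunit proteins. In the splicing table the rule found 603 of 283765 entries.

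The ribosome translates messenger RNA into protein. Its small subunit decodes the message and its large subunit joins the amino acids, and each is built from ribosomal RNA and a set of proteins named Rps and Rpl. Many of these messages start with a C and a run of pyrimidines, the 5′ TOP motif, through which growth signals set their translation together. Free Rpl5 and Rpl11 bind Mdm2 and so link ribosome assembly to p53, and Rps27l is a p53 target that is close in sequence to Rps27.

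RNA came from the cerebellum of mice on a C57BL/6 background, either wild type or with Sam68 (gene Khdrbs1, an RNA-binding splicing regulator) knocked out. The groups were wild type at postnatal day 1 (P1, libraries 8 and 9), day 10 (P10, libraries 5 and 6) and day 30 (P30, libraries 1, 2 and 3), and Sam68 knockout at P1 (libraries 13, 14 and 15) and P10 (libraries 10, 11 and 12), with no knockout library at P30 here. The labels do not say how the knockout allele was made or whether libraries came from separate animals, so p-values measure only the spread between these samples, which may be technical. In bulk tissue, fewer cells of a type and less RNA per cell cannot be told apart.

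The expression unit was cRPKM, reads per kilobase of mappable positions and per 1e6 reads. The reads behind that table, estimated from the spacing of its values, numbered 0.0957 M to 4.09 M (M, 1e6 reads) per library, and 5 libraries had under 0.5 M: wild type P10 library 5, knockout P1 libraries 13 and 15, and knockout P10 libraries 11 and 12. The reads of the splicing table, called junction reads below, came to 40.4 M to 69.4 M per library when summed over all events. A read used by several events counts in each, so this sum overstates the depth and cannot be set beside the reads behind cRPKM. Khdrbs1 ranged from 29.5 to 74.4 cRPKM in the 7 wild type libraries and from 1.28 to 8.5 cRPKM in the 6 knockout libraries, in accord with the labels. Purkinje cell markers summed to 120 to 238 cRPKM at wild type P1 and 1600 to 1896 cRPKM at P30, so these defining markers of the cerebellum were present.

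Of the 129 genes, 83 reached a mean of 1 cRPKM in at least 1 group and were tested among 14063 genes. Another 28 were listed at 0 in every library, 17 had no value, among them Rps18, and Rpl3l stayed below 1 cRPKM in every group. All 42 large subunit genes and 29 of the 30 small subunit genes were tested, against 5 of 8 named copies and 6 of 48 pseudogene names. Of the 83, 75 reached 1 cRPKM in all 5 groups, so the filter itself chose few by the group in which they were high. Many of these genes have near-identical copies elsewhere in the genome, which limits single genes, and the unit is scaled to mappable positions. The mappable length of the 78 members whose reads could be recovered ran from 3 to 4778 positions, with a median of 391.

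Single levels therefore have to be read with care. The highest mean over the 13 libraries was that of Rps26, a small subunit protein, at 2609 cRPKM over 34 mappable positions, followed by the large subunit gene Rpl36 at 2259 cRPKM over 20 positions and Rps6, the small subunit protein that S6 kinase phosphorylates, at 2185 cRPKM. The lowest were the large subunit gene Rpl24 at 8.76 cRPKM and the small subunit genes Rps27 at 9.41 cRPKM and Rps13 at 6.97 cRPKM. Rps27 was listed at 0 in all libraries but wild type P30 library 2, where it stood at 122.27 cRPKM. The median of the means was 246 cRPKM, and the highest mean was 375-fold the lowest, although the proteins are present in equal numbers in the ribosome.

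The start of the transcript is shown for members with the largest falls between P1 and P30 whose annotated start carries the pyrimidine motif named above. Each line gives the 15 bases before the annotated start in lower case and the 15 bases from the start in capitals, on the transcribed strand, from RefSeq on GRCm38.p6. The positions are chr2:39005117-39005146 (minus strand) for Rpl35, chr14:18270972-18271001 (minus) for Rpl15, chr17:27635230-27635259 (minus) for Rps10, chr4:86857353-86857382 (minus) for Rps6, chr9:120571502-120571531 (plus) for Rpl14 and chr16:33056467-33056496 (plus) for Rpl35a.
Rpl35: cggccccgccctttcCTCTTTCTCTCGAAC
Rpl15: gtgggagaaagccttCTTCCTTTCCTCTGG
Rps10: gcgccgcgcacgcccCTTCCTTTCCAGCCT
Rps6: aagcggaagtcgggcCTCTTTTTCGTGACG
Rpl14: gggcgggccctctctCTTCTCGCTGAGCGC
Rpl35a: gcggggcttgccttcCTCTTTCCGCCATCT

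A RefSeq start was found for 51 of the 71 tested genes that encode a protein of the usual ribosome. Of these 51, 11 (21.6%) had a C followed by 4 pyrimidines exactly at the annotated start, against 3.01% of the 27025 genes with a start in RefSeq. With the motif allowed anywhere from 10 bases before to 15 bases after the start, the shares were 62.7% and 34.4%. In windows of 300 bases around the start, CTCTTT on the transcribed strand occurred in 23 of 51 members (45.1%) and 13.7% of all genes, and CCGGAAG, the core bound by ETS factors such as GABP, on either strand in 19 (37.3%) and 9.93%. TATAAA was found in 5 (9.80%) against 15.7% of all genes, and CACGTG, the E-box bound by Myc, in 6 (11.8%) against 8.09%; both were searched on both strands. These matches describe letters in a window and not bound sites.

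The clearest pattern was a fall of the ribosomal protein messages in the wild type cerebellum between P10 and P30. The median level of the 71 usual members was 294.38 and 305.48 cRPKM in the P1 libraries, 235.72 and 269.06 cRPKM at P10, and 115.49, 102.96 and 133.08 cRPKM at P30. The 3 P30 libraries lay below all other libraries by a wide gap. In the knockout the median was 261.23, 270.67 and 302.8 cRPKM at P1 and 277.1, 294.07 and 264.79 cRPKM at P10, so the 2 knockout ages overlapped. As a share of the summed cRPKM of all genes, all ribosomal protein genes with a value, copies and pseudogene names included, took 6.40% ± 0.489 (SD, n = 2) in wild type P1, 5.29% ± 0.495 (n = 2) at P10 and 2.52% ± 0.243 (n = 3) at P30. The knockout shares were 5.63% ± 0.285 (n = 3) at P1 and 5.63% ± 0.219 (n = 3) at P10.

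**Figure D1:**
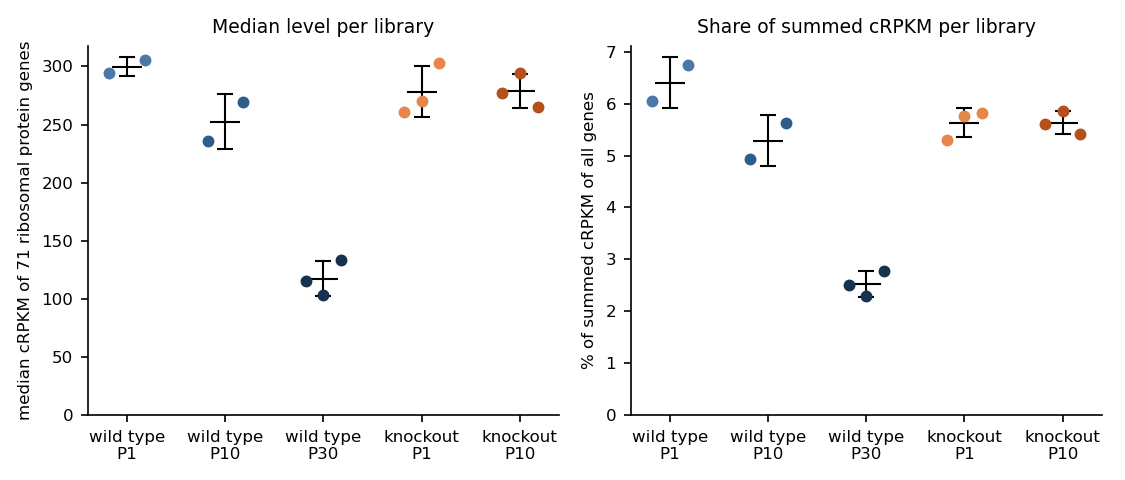
Median cRPKM of the 71 usual ribosomal protein genes (left) and the share of the summed cRPKM in percent taken by all ribosomal protein genes with a value, copies and pseudogene names included (right) in each library, by group; points are libraries and bars are mean ± SD. The 3 wild type P30 libraries, at 102.96 to 133.08 cRPKM and shares of 2.29% to 2.78%, lie below the other 10 libraries.

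Expression was tested with limma on log2(cRPKM + 1), with 13 libraries in 1 fit and Benjamini-Hochberg adjustment over all 14063 genes, and a gene was called at an adjusted p under 0.05. Changes are given on that log2 scale, which understates those of low genes. Between P30 and P1 in wild type, 52 of 83 members were called lower and 0 higher, where 15.8% of all tested genes were called lower and 9.66% higher. The median log2 change of the members was -1.18 against -0.13 for all genes. In 67 members every P30 library lay below every P1 library, and in 2 the reverse, against 38.7% and 26.3% of all genes. Between P10 and P30, 41 of 83 were called lower and 0 higher, against 9.73% and 5.02% of all genes, with medians of -0.97 and -0.13, and every P30 library lay below every P10 library in 60 members and above in 1, against 34.9% and 20.2% of all genes. The count of calls fell to 26 without wild type P10 library 6, the deeper library of its pair.

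Both subunits took part. From P1 to P30, 30 of 42 large subunit genes (median -1.24) and 20 of 29 small subunit genes (median -1.37) were called lower. From P10 to P30 the counts were 22 of 42 (median -0.96) and 17 of 29 (median -1.05). Of the 533 other genes that averaged 100 cRPKM or more, 173 were called lower and 108 higher from P1 to P30, with a median of -0.08.

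**Figure D2:**
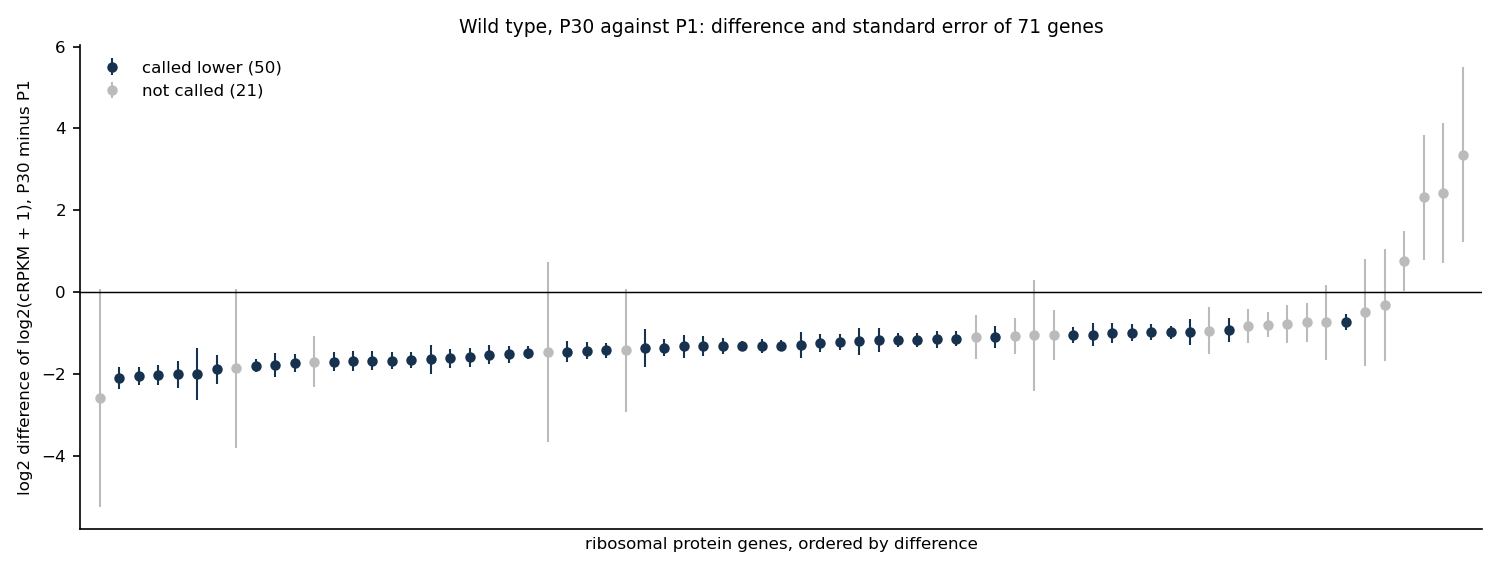
Difference of mean log2(cRPKM + 1), wild type P30 minus P1, for the 71 ribosomal protein genes ordered by size, with the standard error from limma as bars; colour marks the 50 genes called lower and the 21 not called. Most genes lie between 1 and 2 log2 units below 0, and the few positive values have wide errors.

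Among the small subunit genes, Rps4x, an X-linked gene for a protein of the 40S body, stood at 392.99 and 405.72 cRPKM at P1, 261.04 and 341.54 at P10, and 92.61, 86.75 and 109.21 cRPKM at P30. Its log2 change was -2.05 (SE 0.221, limma adjusted p 3.4e-05) from P1 and -1.63 (adjusted p 4.12e-04) from P10. The groups did not overlap in either comparison. Rps2, at the entry of the message channel, was 1124.2 and 1248.75 cRPKM at P1 and 249.1, 400.63 and 252.05 cRPKM at P30, a log2 change of -2.01 (SE 0.33). The highest member, Rps26, fell from 4303 ± 268 (SD, n = 2) to 1170 ± 179 cRPKM (n = 3), by 1.89 on the log2 scale (SE 0.357). For the later interval, P10 to P30, Rps14 fell by 1.58 and Rps16 by 1.45 on the log2 scale, both called; Rps14 went from 843 ± 186 (n = 2) to 280 ± 44.9 cRPKM (n = 3). The calls of Rps16 without P10 library 5 (adjusted p 0.0729) and of Rps2 from P10 without library 6 (adjusted p 0.103) were lost.

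Among the large subunit genes, Rpl12, a stalk base protein, was 420.97 and 413.8 cRPKM at P1, 165.23 and 269.06 at P10, and 95.48, 70.81 and 132.25 cRPKM at P30. Its log2 change from P1 was -2.10 (SE 0.278, adjusted p 1.54e-04). Rpl36a stood at 498.24 and 542.46 cRPKM at P1 and at 137.5, 103.91 and 140.67 cRPKM at P30, a log2 change of -2.03 (SE 0.239). Rpl23, which like Rpl5 and Rpl11 can bind Mdm2, had the smallest error among the large falls: 444.66 and 475.98 cRPKM at P1 against 139.06, 121.24 and 133.08 at P30, with a log2 change of -1.81 (SE 0.162). In each of these genes both P1 libraries lay above all P30 libraries. Rpl35, at 45.4 ± 13.02 and 10.4 ± 1.83 cRPKM, was called at -2.01 (SE 0.629, adjusted p 0.0345), a call lost when any 1 of its 5 libraries was left out. After P10, Rpl34 fell by 1.44 (SE 0.225) and Rpl7a by 1.41 (SE 0.361, adjusted p 0.0206) on the log2 scale. The Rpl7a call was lost without wild type library 1 (adjusted p 0.0825), 3 (0.0721), 5 (0.0982) or 6 (0.127).

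No member was called higher at P30 than at P1 or P10 by cRPKM. The members with positive values and the smallest p were Rpl23a at +3.36 (SE 2.13, p 0.141) and Rps27 at +2.32 (SE 1.52, p 0.154), besides 1 pseudogene name from P1 and 2 from P10; Rps27 rests on 1 library. Rpl23a, which lies at the exit of the peptide tunnel, had 32 mappable positions and 28 reads over all libraries.

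Between P1 and P10 few wild type changes were called by cRPKM. From P1 to P10, 1 of 83 members was called lower and 0 higher, against 1.85% and 2.20% of all genes, and the median was -0.22 against 0.01. The called member was Rps4y2, a copy of Rps4x that current annotation names Rps4l, at 142.96 and 90.39 cRPKM at P1 and 40.57 and 58.9 at P10, a log2 change of -1.20 (SE 0.297, adjusted p 0.0434). The call was lost without library 8 (adjusted p 0.351), 5 (0.33) or 6 (0.0598). Rpl23 (-0.66, adjusted p 0.0638) and Rpl12 (-0.98, adjusted p 0.11) did not pass. In 37 members both P10 libraries lay below both P1 libraries, and in 5 above, against 23% and 25.3% of all genes.

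In the knockout, 1 of 83 members was called lower and 0 higher from P1 to P10, against 4.59% and 5.58% of all genes, with a median of 0.02. It was again Rps4y2, from 140.75, 138.95 and 235.96 to 79.26, 87.18 and 101.95 cRPKM, a log2 change of -0.90 (SE 0.242, adjusted p 0.0362). The call was lost without knockout library 15 (adjusted p 0.0923), 10 (0.118) or 11 (0.0984). Rps19bp1 (-1.28, adjusted p 0.0585), Rps15a (-0.42) and, upward, Rps28 (+3.24, adjusted p 0.112), Rpl31 (+0.76) and Rpl37 (+0.54) did not pass. Whether the reads assigned to Rps4y2 are all its own, and not from Rps4x, was not tested.

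Loss of Sam68 left no called difference in expression among these genes by cRPKM. At P1, 0 of 83 members passed against 0.0284% of all genes called lower and 0.00711% higher, and 16 had an unadjusted p under 0.05. The median log2 change was -0.19 against -0.04 for all genes. Every knockout library lay below every wild type library in 19 members and above in 6, against 10.6% and 7.89% of all genes. Among the 533 other genes of at least 100 cRPKM, 74 lay below and 37 above at P1 without overlap. At P10, 0 of 83 passed against 0.00711% lower and 0% higher, with a median of 0.13 against -0.03. There 1 member lay below and 23 above without overlap, against 10.4% and 8.59% of all genes. Of the 533 other genes of at least 100 cRPKM, 109 lay above and 19 below at P10 without overlap.

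Rpl12 had the smallest p among rises at both ages. It was 795.36, 699.16 and 661.18 cRPKM in knockout P1 libraries against 420.97 and 413.8 in wild type, a log2 difference of +0.78 (SE 0.278, p 0.016, adjusted p 0.704). At P10 it was 353.45, 589.65 and 481.81 cRPKM against 165.23 and 269.06, a difference of +1.14 (SE 0.278, p 0.0015, adjusted p 0.884). The knockout lay above the wild type in every library at both ages, yet neither passed the adjustment. At P1 the lowest p belonged to Rpl37, a zinc finger protein of the large subunit, at 67.06, 95.33 and 158.72 cRPKM against 227.52 and 194.32, a difference of -1.06 (SE 0.283, p 0.00287, adjusted p 0.685). By junction reads Rpl37 differed at P1 by +0.01 (p 0.937). Rpl39 (-0.79) and Rpl15 (-0.72) followed downward, and Rps25 (+0.42) and Rpl19 (+0.43) upward; none passed. At P10 the others with the smallest p were Rpl37a (+0.74, adjusted p 0.884, and -0.32 by junction reads, p 0.123), Rps4y2 (+0.85) and, downward, Rps16 (-0.52) and 2 pseudogene names.

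The difference between the knockout effects at the 2 ages was called for 0 of 83 members, against 0% of genes called lower and 0.0142% higher. The smallest p among members were those of Rpl35 (+2.35), Rpl3 (+0.93) and Rpl23 (+0.54) upward and Rpl23a (-5.07) with 2 pseudogene names downward, each with an adjusted p of 0.854.

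Because cRPKM rested on few reads, the junction reads of all splicing events of a gene, scaled to 1e6 in the library, served as another measure of level, chosen after the data had been seen. It covered 48 members among 13409 genes. All members together held 1.80% and 1.84% of junction reads at wild type P1, 1.52% and 1.66% at P10, and 0.765%, 0.728% and 0.879% at P30. From P1 to P30, 42 of the 48 were called lower and 1 higher, where 35.5% of all genes were called lower and 24.6% higher, with a median of -0.94. For P10 to P30 it was 36 lower and 1 higher, against 28.6% and 18.4%, with a median of -0.78. The falls were thus seen in both measures, with 28 of the 30 members that were lower by cRPKM from P1 to P30 and also measured by junctions called lower there. From P1 to P10 in wild type, 6 of 48 were called lower and 0 higher, against 13.8% and 12.8% of all genes. The median was -0.22, and the share called lower was near that of all genes. The junction measure agreed in sign with cRPKM in 48 of 48 members from P1 to P30 but in 24 of 48 for the genotypes at P1 and 30 of 48 at P10. By junctions 0 of 48 members were called between genotypes at either age (limma), against 0.00746% of all genes lower at P1, 0.0149% lower at P10 and 0% higher at both. Both measures come from the same libraries.

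**Figure D3:**
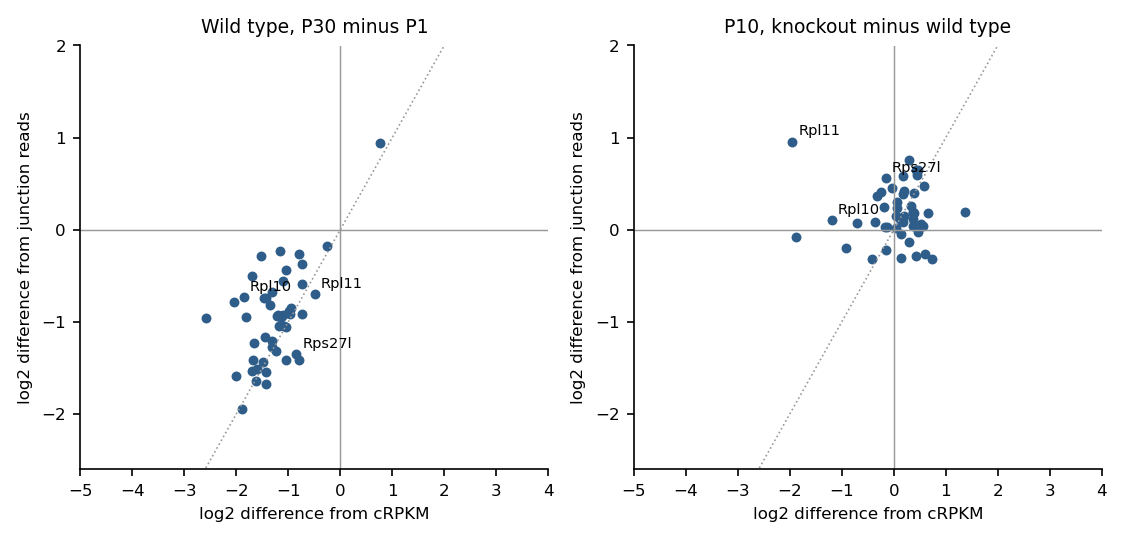
Log2 change of each member by cRPKM (horizontal) and by junction reads (vertical), for wild type P30 minus P1 (left) and knockout minus wild type at P10 (right); each point is 1 of 48 genes and the dotted line marks equal values. In the left panel nearly all points lie below 0 on both axes, and in the right panel they scatter around 0.

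By junction reads, large falls from P1 to P30 were those of Rps26 (-1.95), Rps9 (-1.68), Rps2 (-1.59), Rps24 (-1.54) and Rps19 (-1.54) of the small subunit and Rpl10a (-1.51) and Rpl7 (-1.44) of the large subunit, named here after their values were seen. The 1 member called higher was Rpl24, one of the lowest members by cRPKM. Its junction reads per 1e6 were 14.2 and 14.4 at P1, 16.9 and 20.4 at P10, and 25.5, 29.2 and 30.1 at P30, a log2 change of +0.94 (SE 0.188, adjusted p 5.5e-04). By cRPKM it was 7.91 and 7.15 at P1 and 12.01, 13.14 and 15.29 at P30. The P30 libraries lay above the P1 libraries in both measures, but the cRPKM difference of +0.75 did not pass. In the knockout from P1 to P10, junction reads called 2 members higher, Rpl18 (+0.40, adjusted p 0.0407) and Rps27l (+0.54, adjusted p 0.0221), and 1 lower, Rpl10 (-0.43, adjusted p 0.0374), against 17.3% and 19.2% of all genes.

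Named copies and their parents were not all called alike. Rpl22 was called lower from P1 to P30 (-1.46) while its copy Rpl22l1 was at -0.80 with an SE of 1.37; Rpl7 was called (-1.48) and Rpl7l1 was at -0.25 and not called; Rpl36a (-2.03) and Rpl36al (-0.98, adjusted p 0.0187) were both called. Rpl7l1, at 24.42 and 29.67 cRPKM at P1 and 25.13, 19.43 and 23.06 at P30, overlapped between ages. Rpl39 was called (-1.68), and its copy Rpl39l was listed at 0, as was Rpl10l, the copy of Rpl10 (-1.86, SE 1.94, not called). Rpl3 was called from P1 (-1.10) and not from P10 (-0.50), and Rpl3l, its muscle copy, was above 0 only in library 9 at 0.65 cRPKM. Rps19bp1 was at -1.13 (adjusted p 0.08). The differences between copies and parents were not tested.

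Rps27l, the p53 target close to Rps27, was 33.15 and 19.18 cRPKM at P1, 37.63 and 56.45 at P10, and 15.01, 10.87 and 15.36 at P30, and the P10 libraries were the highest of the wild type. By junction reads P10 (22.9 and 36.1 per 1e6) overlapped P1 (25.1 and 27.9), a difference of +0.12 (p 0.584, adjusted p 0.718). By cRPKM the change from P1 to P10 was +0.84 (p 0.0541, adjusted p 0.32), from P10 to P30 -1.69 (SE 0.361, adjusted p 0.00778) and from P1 to P30 -0.85 (adjusted p 0.112). The P10 to P30 call was lost without library 6 (adjusted p 0.0976), which held 62 reads against 6 in library 5. By junction reads the fall was called from P10 (-1.47, adjusted p 2.0e-05) and from P1 (-1.35, adjusted p 2.1e-05). Between knockout and wild type Rps27l differed by +0.12 at P1 and -0.16 at P10, neither called, and by junction reads at P10 by +0.56 (adjusted p 0.277).

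Rpl11 was a thin case. Over all 13 libraries only 70 reads on 250 mappable positions lay behind its cRPKM, which was 22.38 and 17.26 at wild type P1, 22.58 and 16.39 at P10 and 10.81, 13.69 and 17.11 at P30. The knockout values were 0, 10.83 and 41.79 at P1 and 12.66, 9.43 and 0 at P10, from at most 5 reads a library. The log2 difference was -1.37 (SE 1.31, adjusted p 0.803) at P1 and -1.95 (adjusted p 0.906) at P10, so no change was detectable at this depth.

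Junction reads of Rpl11 gave the other direction. Per 1e6 they were 4.23 and 4.004 in wild type P1, 2.67 and 3.44 at P10 and 1.93, 2.15 and 2.37 at P30, and 11.7, 8.43 and 8.34 in knockout P1 and 5.59, 6.02 and 9.37 in knockout P10. Every knockout library lay above every wild type library. The log2 difference was +1.02 (SE 0.211, p 2.3e-04, adjusted p 0.226) at P1 and +0.96 (p 4.2e-04, adjusted p 0.273) at P10. On junction reads of simple exon events alone, a measure that covered 8 members, it was +2.10 (adjusted p 0.00422, called) at P1 and +1.54 (adjusted p 0.092) at P10. The 132-nucleotide simple exon event of Rpl11 held 15 and 22 reads in wild type P1 and 167, 105 and 95 in knockout P1. These totals equal those over the 111-nucleotide exon described next, and the sum over all events counts such reads more than once. Both measures and the excess described next thus rest on shared reads and are not separate observations.

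The excess lay on some junctions and not on others. Reads over the 111-nucleotide exon of Rpl11 numbered 15 and 22 in wild type P1, 15 and 25 at P10 and 10, 12 and 15 at P30, against 167, 105 and 95 in knockout P1 and 52, 48 and 99 in knockout P10. Reads over the alternative 3′ site nearer the start of the gene numbered 124 and 151, 117 and 159, and 81, 70 and 79 in wild type, and 131, 103 and 120, and 131, 148 and 185 in knockout. In the first event the lowest knockout library was above the highest wild type library, and in the second the 2 genotypes overlapped. Rpl11 (chr4:135603727-135608632, mm9) and Khdrbs1 (chr4:129386805-129419022) lie on the same chromosome with 6.18 Mb between them, and whether the position of Rpl11 has a part in the difference was not tested.

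The 111-nucleotide exon (chr4:135606195-135606305, mm9) is the place of the 1 event called between genotypes. By gene, length and spacing it matches exon 5 of 6 of Rpl11 in GENCODE M21 (GRCm38 chr4:136050280-136050390, minus strand), a coding exon that keeps the reading frame when skipped. It is shown with the 3 bases at each spliced end in capitals, because the event concerns its inclusion.
Rpl11 exon: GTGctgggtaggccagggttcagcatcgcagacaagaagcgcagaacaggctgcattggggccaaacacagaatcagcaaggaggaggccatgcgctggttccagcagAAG

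Inclusion is given as PSI, the percent of an event's reads that include the segment, and an event was called at an adjusted p under 0.05 and a difference of at least 10 points. The PSI of this exon was 100 in both P1 wild type libraries and all 6 knockout libraries, 87.5 and 78.57 in wild type P10, and 53.85, 60 and 87.5 in wild type P30. At P10 the knockout was 17.0 points higher (adjusted p 0.029), with the wild type at 83.0 ± 6.31 (SD, n = 2). Of 50 member events tested at P10 it was the 1 called, against 0.0304% of all events. The call was lost without any 1 of the 5 libraries (adjusted p 0.0814 to 0.266), and the wild type libraries had 15 and 25 reads against 48 to 99 in the knockout. These are the reads of the excess described above, all for inclusion in the knockout. The call and the excess are thus not separate observations. At P1, with a PSI of 100 in all 5 libraries, the log odds still differed (p 0.00187, adjusted p 0.552), since 0.5 reads were added to each side and the knockout had 95 to 167 reads against 15 and 22. In wild type from P1 to P30 the exon fell by 32.9 points (adjusted p 0.00176), with P30 at 67.1 ± 17.9 (n = 3), and that call held without each library; with at least 20 reads required the exon could not be tested. The deposited quality field starts with the letter N for this exon in 13 of 13 libraries, a label that the sources used here do not define. Among exons named below, it does so for the Rpl10a exon in 12 libraries and the Rps27l exon in 5. The 39- and 84-nucleotide exons of Rpl23 carry it in 12 and 13 libraries.

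Rps27l had a further pattern that did not reach a call. Its 75-nucleotide exon (chr9:66796450-66796524, mm9) was included at a PSI of 3.08 and 2.53 in wild type P1, 5.41 and 3.75 at P10 and 2.33, 1.18 and 8.7 at P30, against 15.74, 11.76 and 14.29 in knockout P1 and 19.42, 16.13 and 12.5 in knockout P10. All 6 knockout libraries lay above all 7 wild type libraries. At P1 the difference was 11.1 points (p 0.0339, adjusted p 0.9999). At P10 it was not tested, since wild type library 5 had 9 reads. Reads over the event were 4 to 17 in wild type and 30 to 48 in knockout libraries. Those for inclusion were 0.08 to 0.64 in wild type and 4.29 to 7.74 in knockout libraries. Each wild type PSI thus rests on under 1 read for inclusion and lies at the floor. Reads over the 1631-nucleotide interval that spans this exon were 700 to 1750 in P1 and P10 wild type and 987 to 1771 in knockout libraries, so there the 2 genotypes overlapped. In knockout libraries at most 0.5 of these reads were for retention, and nearly all were spliced across the interval. The exon event counted only 30 to 48 reads there, so its PSI is not the share of all reads across the interval.

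In GENCODE M21 the matching exon is exon 4 of 5 of Rps27l (GRCm38 chr9:66948639-66948717, plus strand), whose 79 bases are 65.8% A or T against 41.4% in the Rpl11 exon. It is shown because Sam68 is known to bind A- and U-rich RNA; the capitals mark the first 4 bases, absent from the 75-nucleotide form of the table. The letters TAAA, the core of the known Sam68 site, occur 0 times in either exon, searched on the transcribed strand. Neither the flanking introns nor other exons were searched, and binding by Sam68 was not tested.
Rps27l exon: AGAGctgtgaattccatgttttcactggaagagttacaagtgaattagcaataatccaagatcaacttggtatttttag

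**Figure D4:**
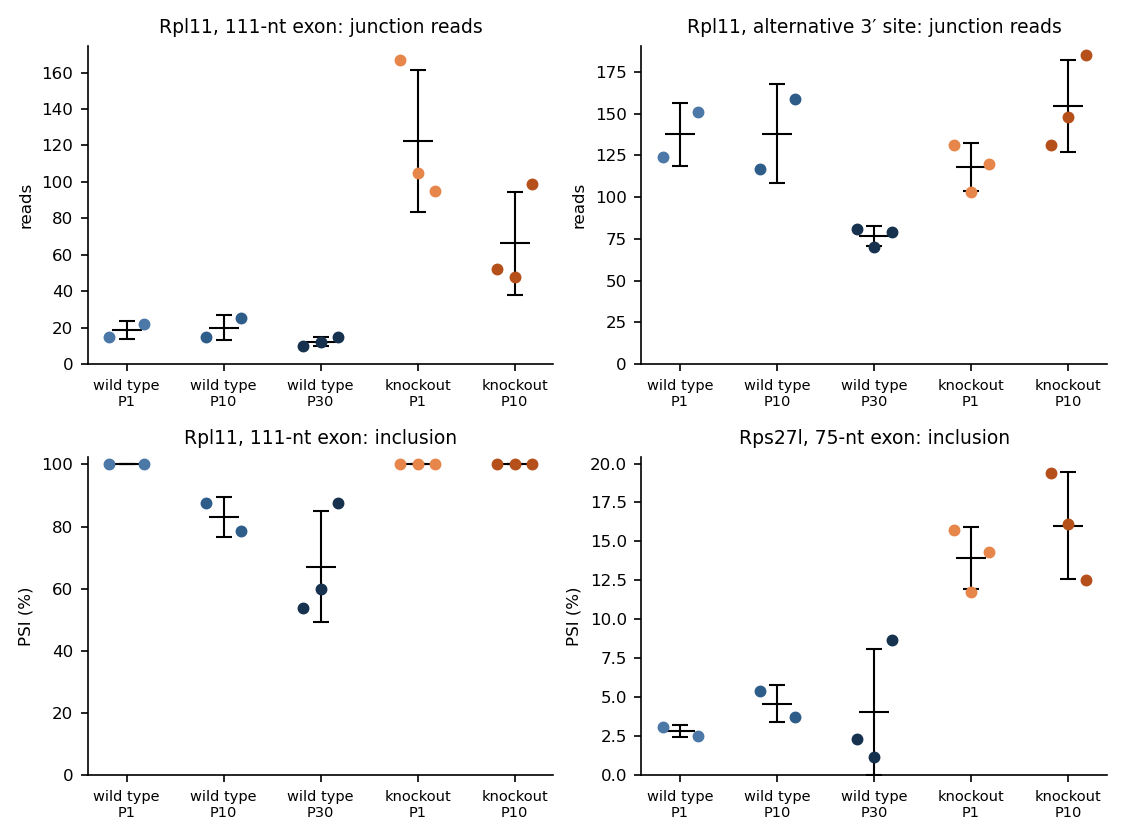
Reads per library over the 111-nucleotide exon and over the alternative 3′ site of Rpl11, and PSI in percent of the Rpl11 exon and of the 75-nucleotide Rps27l exon, by group; each point is a library. Knockout libraries lie above wild type libraries in the first panel (48 to 167 against 10 to 25 reads) and in the last, and overlap with them in the second.

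Of the 603 splicing entries, 421 added a length and 212 of these had at least 10 reads in all 13 libraries; 55 events of 29 genes varied enough to be tested in some comparison. No event was called at P1 between genotypes (0 of 50, with 4 at an unadjusted p under 0.05, against 0.0238% of all events called), in wild type from P1 to P10 (0 of 48, with 8, against 0.666%), from P10 to P30 (0 of 43, with 8, against 2.93%) or in the knockout from P1 to P10 (0 of 50, with 3, against 0.857%). None differed in its knockout effect between ages (0 of 46, with 3, against 0%). From P1 to P30 in wild type, 7 of 43 were called, against 9.95% of all events. All these counts are from limma on log2 odds.

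The Rps24 event is an alternative 3′ splice site that adds 85 nucleotides (chr14:25310887-25311037, mm9). Rps24 encodes a small subunit protein that is mutated in Diamond-Blackfan anaemia and is known for alternative exons at its 3′ end. The longer form had a PSI of 0.83 and 1.67 at wild type P1, 9.02 and 4.5 at P10 and 14.15, 24.64 and 21.9 at P30, from 69 to 289 reads a library. It rose in the wild type by 18.98 points from P1 to P30 (adjusted p 1.07e-04), and the ages did not overlap. The call held under every alternative run, those without 1 library included. From P10 to P30 the difference of 13.5 points did not pass (adjusted p 0.058). In the knockout the PSI was 2.69, 2.97 and 3.05 at P1 and 6.31, 3.98 and 9 at P10, with an increase of 3.53 points that did not pass (adjusted p 0.356).

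The 104-nucleotide intron of Rpl10 (chrX:71516214-71516317, mm9), an X-linked gene for a protein near the peptidyl transferase centre, was retained less with age. Its PSI was 80 and 83.12 at wild type P1, 59.75 and 67.62 at P10 and 45.07, 46.97 and 46.77 at P30. Over all ages and both genotypes it had 146 to 496 reads a library. The fall from P1 to P30 was 35.3 points (adjusted p 0.00207), with the P10 libraries between the other ages, and it held under every alternative run. In knockout libraries the PSI was 88.31, 76.38 and 79.71 at P1 and 70.78, 62.34 and 75.68 at P10, a difference of -11.9 points that did not pass (adjusted p 0.297). Rpl10 had 71 mappable positions and 26 reads behind its cRPKM over all libraries. Whether near-identical copies of the gene bear on this PSI was not tested.

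The other called events were less firm. The alternative 5′ site of Rpl21 that adds 174 nucleotides (chr5:147644778-147645316, mm9) fell from 71.9 ± 3.27 (SD, n = 2) to 45.5 ± 1.24 (n = 3), by 26.4 points (adjusted p 0.0329). The 75-nucleotide exon of Rpl10a (chr17:28465756-28465830) rose from 59.5 ± 8.51 (n = 2) to 88.2 ± 1.69 (n = 3), by 28.7 points (adjusted p 0.0348). Over all ages and both genotypes it had 19 to 55 reads a library. Both calls were lost without any 1 of the 5 libraries. At Rpl3, a large subunit protein near the catalytic centre, 2 alternative 3′ sites that share reads moved in opposite directions (chr15:79912831-79913012): the 19-nucleotide form rose by 14.7 points to 96.3 (adjusted p 0.0175) and the 11-nucleotide form fell by 11.7 points to 2.62 (adjusted p 0.0183). The first call was lost without library 8 (adjusted p 0.172) or 3 (0.0501), and the second without 8 (0.151), 9 (0.0562), 1 (0.0524) or 3 (0.0558).

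**Figure D5:**
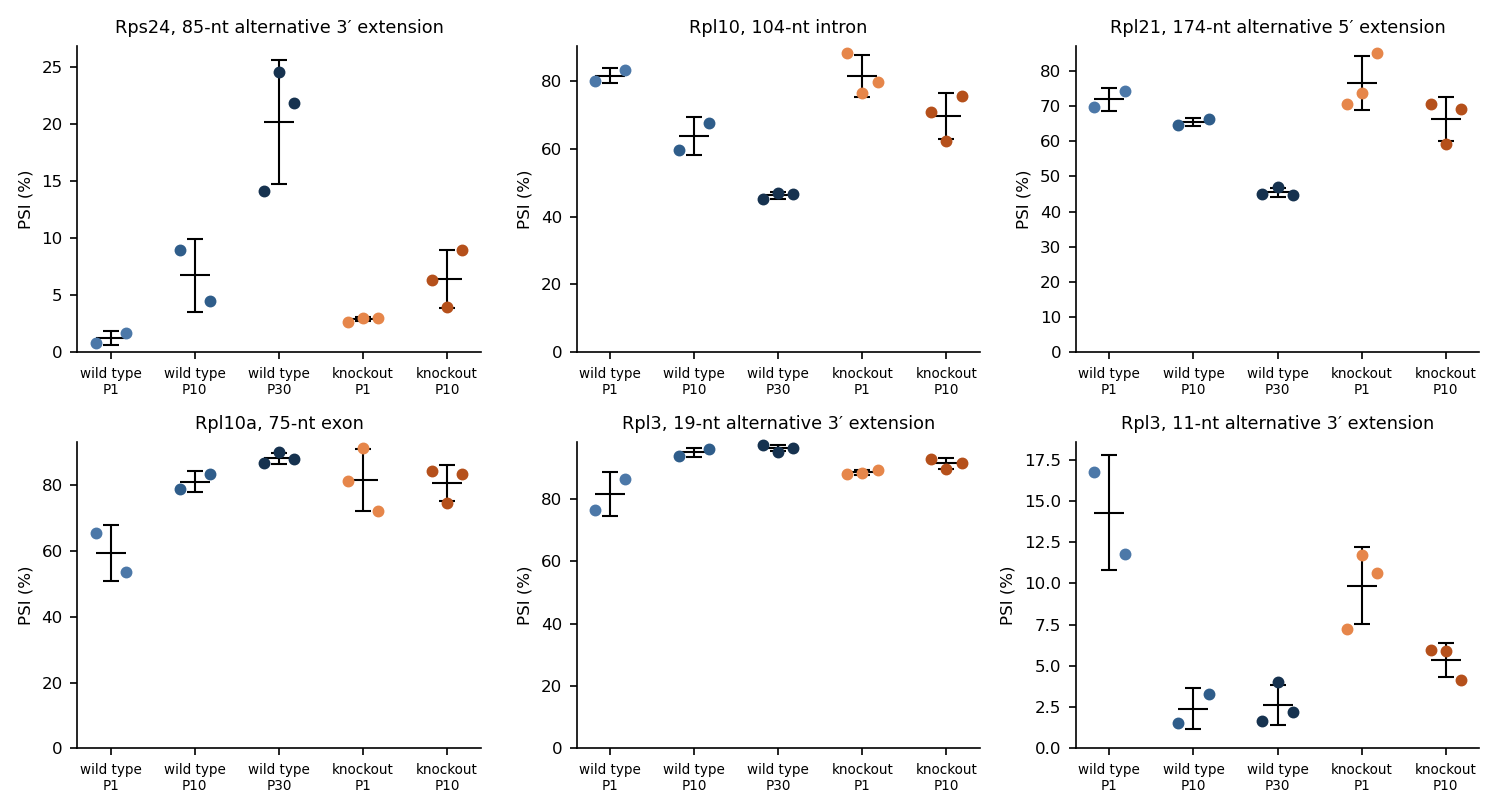
PSI in percent by group for the events called between wild type P30 and P1 in Rps24, Rpl10, Rpl21, Rpl10a and Rpl3; each point is a library. The Rps24 site rises from 0.83 and 1.67 at P1 to 14.15 to 24.64 at P30 and the Rpl10 intron falls from 80 and 83.12 to 45.07 to 46.97.

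Some larger differences between genotypes did not pass. At P10, the 39-nucleotide exon of Rpl23 (chr11:97643317-97643355, mm9) was 39.4 points higher in the knockout (p 0.00398, adjusted p 0.868), at 85.74, 89.14 and 92.33 against 35.34 and 64 in wild type, on 12 to 23 reads; its 84-nucleotide partner (+38.8 points) shares reads with it. The 40-nucleotide 3′ extension of Rpl26 was 18.6 points lower at P10. At P1, the Rpl10a exon was 22.1 points higher (p 0.021, adjusted p 0.9999) and the 55-nucleotide 5′ site of Rpl26 22.6 points lower. From P10 to P30 in wild type, the same Rpl26 3′ extension was 43.43 and 34.43 against 70.98 and 72.69, 32.9 points lower (adjusted p 0.0862), with P30 library 2 (PSI 78.38 on 9 reads) left out by the read minimum. The Rpl21 site was at -19.96 points and a 26-nucleotide site of Rps3a 19.4 points higher; none passed.

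Lists of related genes, chosen with earlier results in view, give the setting, to be read against the 15.8% of all tested genes called lower, the 9.66% called higher and the median of -0.13 from P1 to P30. Of 6 ribosomal protein genes outside the naming rule, 4 were called lower from P1 to P30 (median -1.01), among them the stalk protein genes Rplp0 (-2.35) and Rplp2 (-0.98) and Rpsa (-2.03). Of 16 elongation factors and other 5′ TOP messages, 15 were called lower (median -1.28), with Hnrnpa1 at -2.09, Gnb2l1, the gene of the 40S scaffold Rack1, at -1.82 and Eef1b2 at -1.61. Of 40 ribosome biogenesis genes 13 were called lower and 0 higher (median -0.53), with Nop58 (-1.32), Ncl (-0.86) and Fbl (-1.64). Of 17 regulators and p53 genes 3 were called lower, a share near that of all genes, and 0 higher (median -0.37): Mycn (-3.18), Mycl1 (-2.30) and Myc (-2.02). Of 12 members mutated in Diamond-Blackfan anaemia 9 were called lower (median -1.32), with Rpl5 from 373.42 and 370.69 to 141.03, 145.11 and 160.92 cRPKM (-1.32, SE 0.131) and Rps10 (-1.68) and Rpl15 (-1.74). Of 75 tested mitochondrial ribosomal proteins, made by another set of genes, 1 was called lower and 2 higher, with a median of -0.09. In each knockout to wild type comparison 0 genes of these lists were called by limma.

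Markers of cell types moved between the same ages. Of 10 markers of granule cell precursors and proliferation, 9 were called lower from P1 to P30 and 8 from P10; their summed level was 162 to 326 cRPKM at P1, 266 to 335 at P10 and 18.3 to 26.5 at P30. Of 7 mature granule cell markers, 6 were called higher from P1 and 5 from P10, from sums of 231 to 362 and 863 to 1010 to 1623 to 1769 cRPKM. Of 8 oligodendrocyte and myelin markers, 6 were called higher and 2 lower from P1, from 144 to 165 up to 3695 to 4601 cRPKM. The part of these shifts in the fall of ribosomal protein messages was not tested. Between genotypes, red blood cell markers summed to 546 to 548 cRPKM in wild type P1 and 32.5 to 458 in knockout P1, and choroid plexus markers to 1.8 to 276 in wild type P10 and 282 to 659 in knockout P10. Of 5 tested genes in each of these 2 lists, 0 were called between genotypes by limma at either age, and of their markers Slc4a1 was at 0 in all knockout P1 libraries, Hba-a2 in all wild type P10 libraries and Folr1 in all wild type P1 libraries. Other sums did not overlap either. At P1 the midbrain and caudal hindbrain markers were 14.9 to 27.5 cRPKM in wild type and 1.5 to 11.5 in knockout, Purkinje cell markers 120 to 238 and 262 to 370, oligodendrocyte markers 144 to 165 and 93.9 to 109, and microglia markers 41.7 to 50.2 and 50.3 to 65.3. At P10 microglia markers were 70.9 to 84.1 in wild type and 93.4 to 122 in knockout. None of the tested genes of these lists was called by limma. The part of these markers was not tested. No marker of granule cell precursors, mature granule cells, oligodendrocytes or Purkinje cells was at 0 in all libraries of a group.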

How the data were processed

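Processed tables of 13 cerebellum libraries were used. RNA libraries were made with a stranded Illumina TruSeq kit per the labels; FastQC, Trimmomatic and build mm9 are named in the submitters' processing notes, and the aligner and quantifier are named in no source used here. The deposited expression values are cRPKM, an RPKM corrected for mappable length; the deposited splicing values are percent spliced in, a percent from 0 to 100, with reads for inclusion and exclusion beside each value. Members, lists and alternatives were chosen with earlier results of these data known. Named were Rpl11, Rps27l, copies with their parents, the 3 highest and lowest members, up to 8 called members a direction with non-overlapping groups (or the 3 smallest p), every called event, up to 5 events with the largest differences and 3 with the smallest p, and up to 3 genes a list; 1 gene that the rule takes is not reported here and stayed in the counts.

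Expression was tested with limma 3.58.1 in R 4.3.3 on log2(cRPKM + 1), 5 groups in 1 fit with 8 residual degrees of freedom, a trended prior and genes of mean 1 cRPKM or more in a group. Events were tested with limma on log2 odds with 0.5 reads added to each side, at 10 or more reads a library, at least 2 libraries a group and mean PSI of 5 to 95. Both were checked on simulated data. Promoter letters came from RefSeq on GRCm38.p6 and exons from GENCODE M21; no coordinates were converted between builds.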

Additional observations from a re-analysis of the deposited data

How the results depend on the processing

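No paired analysis was possible because the groups share no replicate numbers, which are library numbers here. Of the counts and medians recomputed under each setting, 294 stayed close to the reported value (counts within 1.5 times) and 57 moved. Junction reads of all events, library weights, leaving out the 5 shallow libraries, usual members only and the prior by inclusion were added after seeing the data.

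With junction reads of simple exon events, a measure of 8 members, genes called were 1 for knockout at P1, 3 from P10 to P30 and 7 from P1 to P30. Medians were then 0.25, 0.67, -0.48, -0.34, -0.99 and -0.18 for knockout at P1, knockout at P10, wild type P10 against P1, P30 against P10, P30 against P1 and knockout P10 against P1. With junction reads of all events, genes called were 6 from P1 to P10 in wild type and 3 in the knockout, and medians were -0.78 (P30 against P10) and -0.94 (P30 against P1). The 6 were all lower, out of 48 members, where 13.8% of all genes were called lower by this measure. Without the 5 shallow libraries, 2 genes were called for knockout at P10 (pseudogene names), 2 for wild type P10 against P1, 0 for knockout P10 against P1 and 2 for the interaction. Wild type P10, knockout P1 and knockout P10 then hold 1 library each (6, 14 and 10), assumed to vary like the other groups, and both pseudogene names were above 0 in library 6 alone. For wild type P10 against P1, 0 genes were called among usual members only, with pseudocount 0.1, no filter, only the groups compared or no trend, and 2 at 10 cRPKM or with library weights. For knockout P10 against P1, 0 were called among usual members only, with only the groups compared or no trend, 2 with pseudocount 5 or at 10 cRPKM, and 4 with library weights. Centred on the median gene, 46 genes were called from P1 to P30 and 33 from P10 to P30. Apart from junction reads of all events, the counts here and below stand without the share of all genes called under the same setting. They show only how the counts depend on the setting.

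Events called for knockout at P10 were 0 with 20 reads, PSI bounds of 1 and 99, a prior by inclusion, PSI in percent or only the groups compared. From P10 to P30, 1 was called with the prior by inclusion and 4 with PSI in percent, and from P1 to P30, 4 with 20 reads and 3 with only the groups compared.

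Leaving out 1 library at a time gave 0 to 2 genes for knockout at P10 and 0 events, 0 to 2 genes for wild type P10 against P1, 26 to 37 for P30 against P10, 40 to 49 genes and 3 to 5 events for P30 against P1, 0 to 4 for knockout P10 against P1 and 0 to 2 for the interaction. The library that gave 2 at knockout P10 and for the interaction was wild type 5, which leaves wild type P10 with library 6 alone, taken to vary like the other groups. For wild type P10 against P1 it was 8 that gave 0, and 5 or 6 that gave 2. For knockout P10 against P1, 14 gave 4, and 10 or 11 gave 0. For P30 against P1, events fell to 3 without 8 or 3 and to 4 without 9 or 1.

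Rpl11 changed sign at knockout P1 with simple exon junctions (2.10) and all junctions (1.02), and at knockout P10 with both (1.54 and 0.96). For knockout P10 against P1 it was 0.68 with weights and 0.21 without shallow libraries, and for the interaction 0.71 and 0.46. Leaving out 1 library, Rpl11 ranged from -2.59 to 0.12 at knockout P1 (positive without 13), -0.25 to 0.19 for wild type P10 against P1 (0.15 without 8, 0.19 without 6), -2.11 to 0.60 for knockout P10 against P1 (0.60 without 15, 0.58 without 12) and -2.08 to 0.63 for the interaction (0.63 without 15, 0.61 without 12). Rps27l was 1.41 and 0.56 at knockout P10 by junctions and 0.041 with weights, -0.34 for wild type P10 against P1 by simple exon junctions, and 0.45 and 0.43 for the interaction by junctions. Leaving out 1 library it ranged from -0.26 to 0.50 at knockout P1 (negative without 9 or 14), -0.44 to 0.13 at knockout P10 (positive without 6) and -0.65 to 0.11 for the interaction (positive without 9, 6 or 14). The cause was not tested.

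The reads behind cRPKM limit single genes: 12 of the 78 members with recovered reads had under 100 reads in all.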
